A study of Mus musculus with 24 samples.

Results

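The comparison described here asks how far the effect of ligation differed at 2 times after surgery: ligated against sham animals at day 15, minus ligated against sham animals at day 8. It used all 24 libraries of the series, 6 in each of 4 groups, chosen by their labels and not by any measured value. The mice were male and of the inbred strain C57BL/6J, with no transgene named. The groups were bile duct ligation (BDL) at day 8, sham surgery at day 8, BDL at day 15 and sham surgery at day 15, with days counted from surgery. Each library held RNA of extracellular vesicles precipitated from plasma, and the labels number 6 samples in each group, read here as 6 animals. The treatment text names ligation for the sham samples too, so groups were taken from the sample titles. The tissue label reads liver, whereas the site label and the extraction text name vesicles of plasma.

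Bile duct ligation blocks the outflow of bile, so that bile salts back up into the liver, ducts proliferate and scar tissue forms with time. Extracellular vesicles are membrane-bound particles shed by cells, and in plasma they come mainly from blood cells and platelets, with hepatocytes as a further source. The RNA they carry is therefore a mixture over source cells. Values are shares of that mixture: more vesicles of a type and more RNA per vesicle cannot be told apart. An effect that grows from day 8 to day 15 can come from a change in ligated animals, in sham animals or in both, so both arms are given beside each difference.

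The 24 libraries held from 101733 to 937963 counts, and 4112 of 21960 genes passed the filter on low counts. A single gene, Lars2, held on average 47.1% of the counts of a library (31.6% to 52.7%). Levels in percent of counts include it in the total. The day 8 libraries numbered 4 to 6 were the deepest of the series (535737 to 937963 counts) and rich in platelet genes in both groups. Sham animals 2 and 3 of day 15 stood apart in genes of neutrophils, proliferation and histones. Ligated animal 3 of day 8 stood apart in hepatocyte genes and in its share of Lars2. List medians that turn or move by over 1.5 times without these libraries are given both ways where they are described. In ligated animal 3 of day 8, Lars2 held 31.6% of counts and the scaling factor was 0.667, both the lowest of the series. Its chi-square against each group mate, divided by the degrees of freedom, ran from 22.4 to 81.6. Between other ligated libraries of day 8 this measure ran from 1.87 to 8.88. Genes of hepatocytes were scarce in sham plasma: 37 genes of secreted liver proteins together made up at most 0.0235% of the counts of any sham library, and Serpina3k, a liver serine protease inhibitor, had 0 counts over the 6 sham libraries of day 15. These levels go against reading the tissue label as liver tissue.

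No gene passed the main test for a different ligation effect at day 15 and day 8. Chd9, the gene with the smallest p, passed in 6 of 14 alternative settings, apart from omission of single libraries. One of these settings paired same-numbered day 8 libraries (edgeR with a replicate block at day 8, adjusted p = 0.0375). That block was chosen after seeing the data, and the pairing is not established. By edgeR's quasi-likelihood F-test with Benjamini-Hochberg adjustment over 4112 genes, 0 genes had a larger and 0 a smaller effect at an adjusted p under 0.05 (0% each). At an unadjusted p under 0.05, 87 genes (2.12%) had a larger and 147 (3.57%) a smaller effect at day 15, 234 in all (5.69%). DESeq2 called 1 gene, Chd9, with a larger effect, and limma-voom called 0. The median difference over all tested genes was -0.04 on the log2 scale, and 46.3% of genes lay above 0. Single genes were measured loosely: the median standard error (SE) of the difference was 0.43, and the median 95% interval reached 0.89 to either side. The interval contained 0 for 3876 of the 4097 genes that have one. A gene has none where a group held 0 counts.

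The effects within each day were many. At day 8, 114 genes (2.77%) rose and 15 (0.365%) fell after ligation, and at day 15, 143 rose (3.48%) and 44 fell (1.07%). Scaled by library totals without TMM factors (trimmed mean of M-values, the scaling used elsewhere), the same split was 56 against 77 at day 8 and 115 against 172 at day 15, and the genes at an unadjusted p under 0.05 for the difference were 128 higher and 91 lower. In all, 52 genes rose at both days and 1 fell at both. No gene was called in opposite directions. A call at 1 day and not at the other does not show a difference: 62 genes were called higher at day 8 alone and 91 at day 15 alone, and none of them was among genes called for the difference, of which there were 0.

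Genes were also sorted by a contrast that gives both days equal weight. The contrast averaged over both days, added after the values were seen, called 292 genes higher (7.10%) and 144 lower (3.50%). Of the 292, 172 (58.9%) had a larger effect at day 15 and 120 a smaller one, with a median difference of 0.14. Of the 144, 103 were further below 0 at day 15, with a median difference of -0.21. These sit beside a median of -0.04 and 46.3% above 0 over all tested genes. A gene could pass the filter through the ligated libraries of a single day, so these splits are no separate support.

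**Figure D1:**
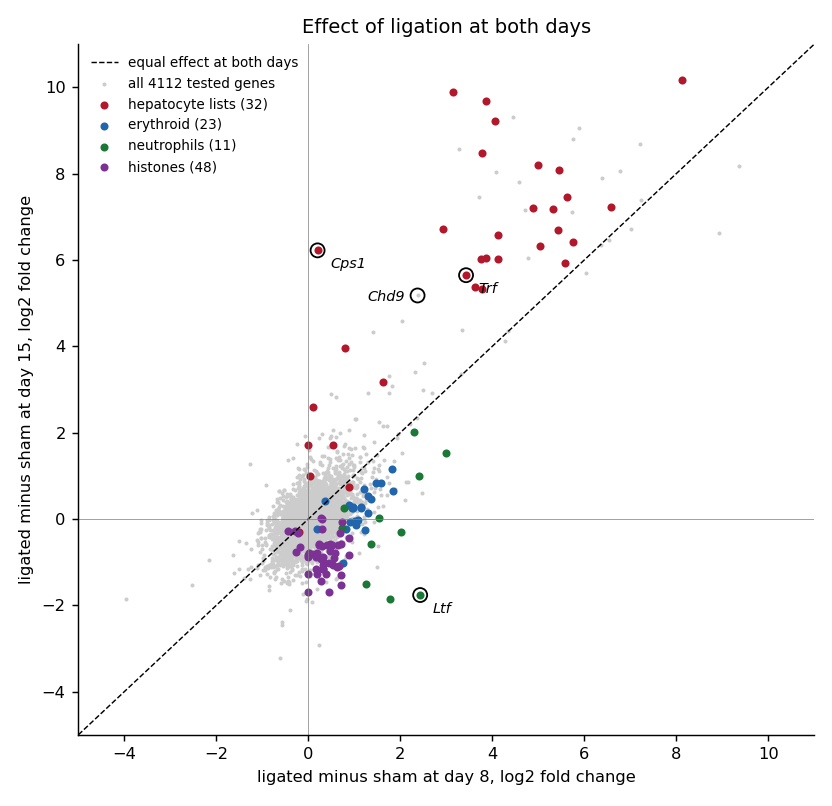
Log2 fold change of ligated against sham animals at day 15 (vertical) and at day 8 (horizontal) for 4112 tested genes, with 4 groups of genes coloured and 4 genes ringed and named. Hepatocyte genes lie mostly above the dashed line of equal effects (medians 4.50 and 6.63 for secreted proteins at day 8 and day 15). Erythroid, neutrophil and histone genes lie mostly under it. Fitted values of genes with few sham counts depend on the prior count.

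Chd9, which encodes a chromatin remodeler of the chromodomain helicase family, had the smallest p for the difference. Its gene lies on GRCm38 chromosome 8, 90828352 to 91054516, plus strand, in GENCODE M21, and overlaps the predicted genes Gm45640 and Gm45643 on that strand and Gm45641 and Gm6658 on the other. In normalised read counts (CPM, scaled to the total of the tested genes with TMM factors), the lowest, median and highest library were 47.8, 80.5 and 106 in sham and 171, 326 and 1072 in ligated animals of day 8. At day 15 they were 42.4, 76.7 and 115 in sham and 972, 2441 and 5948 in ligated animals. At both days the 6 ligated animals were higher than the 6 sham animals. Ligated animals of day 15 lay above those of day 8 except for animal 3 of day 8 (1072), which exceeded animal 4 of day 15 (972). Chd9 rose by 2.37 (SE 0.40, edgeR adjusted p = 0.00226) at day 8 and by 5.18 (SE 0.41, adjusted p = 3.01e-08) at day 15 on the log2 scale. The difference was 2.80 (SE 0.57, 95% interval 1.63 to 3.97, adjusted p = 0.177), of which 2.74 lay in ligated animals and -0.06 in sham animals. The adjusted p ran from 0.00133 (without ligated animal 3 of day 8) to 0.491 (without sham animal 5 of day 15) when single libraries were left out, and it also passed without ligated animal 4 of day 15 (0.0388). It passed with DESeq2 (0.0120), without TMM factors (0.0106), without a filter on low counts (1.17e-13), with the replicate block at both days (0.0477) or at day 8 only (0.0375), and with a covariate for day 8 libraries 4 to 6 (0.0395). It did not pass with limma-voom (0.653), robust dispersion (0.735), a minimum count of 30 (0.171), TMM factors made without Lars2 and hemoglobin genes (0.195) or without sham animals 2 and 3 of day 15 (0.390). With day 8 libraries 1 to 3 only it was 2.50 (adjusted p = 0.862), and with libraries 4 to 6 only 3.34 (adjusted p = 0.0909).

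Transcripts of proteins that hepatocytes secrete into plasma had larger fitted effects of ligation at day 15 than at day 8, though none passed the test for the difference. Of 37 listed genes 18 passed the filter, and a gene could pass it through ligated libraries alone. Of the 18, 13 rose at day 8 (against 2.77% of all tested genes) and 18 at day 15 (against 3.48%). In ligated animals 17 rose from day 8 to day 15, against 2.26% of all tested genes called higher in that comparison. The summed level of the list in the lowest, median and highest library was 0.00541%, 0.00822% and 0.0167% of the counts in sham and 0.0514%, 0.1005% and 0.480% in ligated animals of day 8. Day 15 gave 0.00986%, 0.0126% and 0.0235% in sham and 0.354%, 0.959% and 2.65% in ligated animals. Ligated animals lay above sham animals at both days, while ligated animals of the 2 days overlapped through animal 3 of day 8 alone (0.480%, the other 5 at most 0.108%).

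The difference between days lay above 0 for 18 of these 18 genes, with a median of 1.97, beside -0.04 for all tested genes. A gene could pass the filter through the ligated libraries of day 15 alone, where the list was highest. That favours a difference above 0 among tested members, so the shared direction is no separate support. Of the 18 only Trf reached an unadjusted p under 0.05 with all libraries. Without ligated animal 3 of day 8, 6 did, and with the replicate block 7. With day 8 libraries 4 to 6 it was 4, and with libraries 1 to 3 it was 1. The median SE of the list was 2.13, and 12 of the 18 had at most 3 counts in a sham group. Over the 6 others the median was 2.24, and with sham counts raised to a floor of 3 over a group it was 2.43. The median was 3.12 without ligated animal 3 of day 8. Within day 8 libraries 1 to 3 it was 1.23, with 16 genes above and 2 below 0, and within libraries 4 to 6 it was 2.72, with 18 above 0.

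Trf encodes transferrin, the iron carrier of plasma (chromosome 9, 103204001 to 103230444, minus strand, over the predicted gene Gm20425 on the same strand). Its level was 28.5, 42.6 and 134 CPM in sham and 196, 332 and 1700 CPM in ligated animals of day 8, as lowest, median and highest. The values of day 15 were 28.2, 67.2 and 111 CPM in sham and 1077, 2551 and 7681 CPM in ligated animals. Ligated and sham animals did not overlap at either day, and the highest ligated animal of day 8, again animal 3, reached into the range of day 15. The difference was 2.22 (SE 0.71, 95% interval 0.76 to 3.68, edgeR adjusted p = 0.709). Without ligated animal 3 of day 8 it was 3.00 and passed (adjusted p = 0.0413, range over single libraries left out 0.0413 to 0.923). Ahsg, which encodes the plasma protein fetuin-A, had a difference of 2.44 (SE 1.53, adjusted p = 0.911) between effects of 4.12 at day 8 and 6.56 at day 15, both called. Serpina3k overlaps Serpina3m on the same strand and has near-identical relatives, so its counts are uncertain. It went from 3 to 54 counts at day 8, a ratio of normalised counts of 18.6 (95% exact interval 6.05 to 93.2). At day 15 it went from 0 to 399 counts, at least 104-fold higher against a floor of 3 counts over the group. Alb, albumin, named here after its values were seen, rose by 5.32 and 7.19 with a difference of 1.87 (SE 1.29, edgeR adjusted p = 0.911).

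Enzymes of liver metabolism had more members with a larger effect at day 15 at an unadjusted p under 0.05 than any other list. Here too a gene could pass the filter through the ligated libraries of day 15 alone, where the list was highest. That favours a larger effect at day 15 among tested members, so this rank is no separate support. Of 42 listed genes 14 passed the filter. Of these, 3 rose at day 8 (against 2.77% of all tested genes) and 11 at day 15 (against 3.48%). In ligated animals 10 rose from day 8 to day 15 (against 2.26%). The difference lay above 0 for 12 of 14 with a median of 2.10, and 6 reached an unadjusted p under 0.05 in that direction, against 2.12% of all tested genes. The summed level was 0.0389%, 0.0493% and 0.112% of the counts in sham and 0.0476%, 0.0635% and 0.113% in ligated animals of day 8, so the groups overlapped. For day 15 the values were 0.0292%, 0.0461% and 0.0961% in sham and 0.133%, 0.2201% and 0.776% in ligated animals, each ligated animal above each sham animal and above each ligated animal of day 8. The median was 1.04 with day 8 libraries 1 to 3 and 2.66 with libraries 4 to 6. It was 1.57 without ligated animal 5 of day 15, the highest of its group. Of the 14 genes 5 had at most 3 counts in a sham group, and over the other 9 the median was 1.54, with 7 above 0.

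Ass1 and Cps1 encode enzymes of the urea cycle, by which hepatocytes dispose of ammonia. Ass1 (chromosome 2, 31470207 to 31520672, plus strand) had 17.6, 20.2 and 38.2 CPM in sham and 7.18, 31.7 and 95.05 CPM in ligated animals of day 8, which overlapped. By day 15 it had 0, 16.7 and 27.0 CPM in sham and 47.5, 155 and 693 CPM in ligated animals, which did not overlap. Its difference was 3.15 (SE 0.86, 95% interval 1.38 to 4.92, edgeR adjusted p = 0.583). Cps1 (chromosome 1, 67123026 to 67231259, plus strand) had counts in a single sham library of each day. In ligated animals its lowest, median and highest level was 0, 8.98 and 31.7 CPM at day 8 and 41.2, 110 and 532 CPM at day 15. At day 15 it went from 3 counts over the sham libraries to 353, a ratio of 91.7 (95% exact interval 31.1 to 447). The difference of 6.02 (SE 2.08, adjusted p = 0.583) rested on sham animal 6 of day 8, which held all sham counts of that day (29.3 CPM), and was 1.55 without it.

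Ahcy, which clears the by-product of methylation reactions, had a median of 29.5 CPM in ligated animals of day 8 and 113 CPM in those of day 15, and a difference of 2.49 (SE 0.77, edgeR adjusted p = 0.7). Ligated and sham animals of day 15 still overlapped for Ahcy, with sham animals at up to 44.3 CPM and the lowest ligated animal at 31.7 CPM. Fmo5, a flavin monooxygenase, had 8.05, 11.6 and 18.5 CPM in sham and 28.5, 69.5 and 228 CPM in ligated animals of day 15, and a difference of 2.40 (SE 0.72, adjusted p = 0.639). At day 8 its ligated and sham animals overlapped (medians 32.3 and 25.8 CPM).

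**Figure D2:**
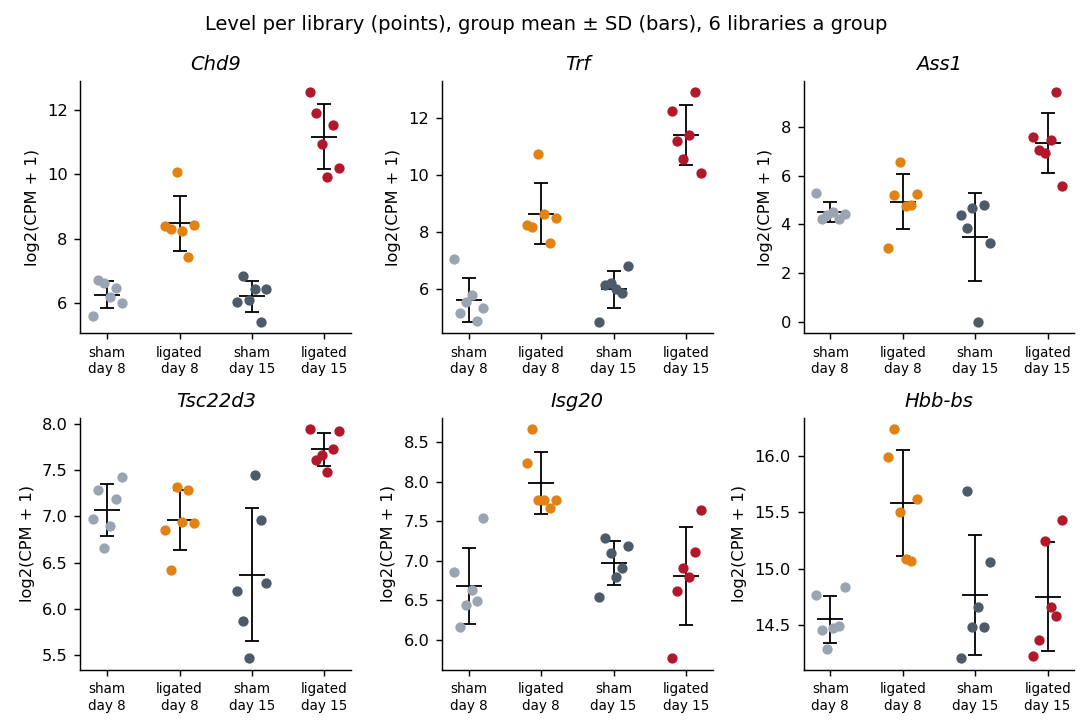
Level of 6 genes as log2(CPM + 1) in each library (points), with the group mean ± SD (bars, n = 6). Chd9 and Trf separate ligated from sham animals at both days, Ass1 and Tsc22d3 at day 15, and Isg20 and Hbb-bs at day 8; the median of Chd9 went from 326 to 2441 CPM in ligated animals.

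The list of acute phase genes, mainly of proteins made by the liver in inflammation, split. Of 14 tested genes of 30 listed, 8 rose at day 8 (against 2.77% of all tested genes) and 12 at day 15 (against 3.48%). The difference lay above 0 for 10 and below 0 for 4, with a median of 1.22. The 4 were Lcn2 (-1.47), Serpina3g (-0.85), Pigr (-0.30) and Socs3 (-0.05), while the fibrinogen, Itih, Orm1, Hp, Cp and Lrg1 genes lay above 0. These genes, too, could pass the filter through ligated libraries of day 15 alone. None reached an unadjusted p under 0.05 with all libraries. Without ligated animal 3 of day 8, 5 were higher at that p, and with the replicate block 3. With day 8 libraries 4 to 6, 3 were higher and 1 lower, and with libraries 1 to 3, 1 was lower. The median was 1.92 without ligated animal 3 of day 8, 0.53 with day 8 libraries 1 to 3, 1.88 with libraries 4 to 6, and 0.24 over the 6 genes with more than 3 counts in both sham groups. Fga, the alpha chain of fibrinogen, went from 1 count over the sham libraries of day 15 to 537, a ratio of 419 (95% exact interval 74.8 to 16561). Its difference was 3.96 (SE 3.17, edgeR adjusted p = 0.901). Itih2, an inter-alpha-trypsin inhibitor chain, was at least 66.8-fold higher at day 15 (0 against 257 counts) and had a ratio of 10.0 at day 8 (95% exact interval 3.10 to 51.3). Lcn2, lipocalin-2, which both liver and neutrophils make, went the other way, with 2.99 at day 8 (called), 1.52 at day 15 and a difference of -1.47 (SE 0.94, adjusted p = 0.911). Over the alternative settings, apart from omission of single libraries, its difference ran from -2.53 to -0.12. Its edgeR adjusted p was highest (0.9999) without sham animals 2 and 3 of day 15.

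Complement and coagulation genes, which liver, platelets and other cells make, did not as single tested genes share the direction of the secreted liver proteins. Of 11 tested genes of 31 listed, 4 lay above and 7 below 0, with a median difference of -0.05 and 0 at an unadjusted p under 0.05. The summed level of all 31 had a fitted difference above 0. Its log2 effect was 0.72 at day 8 and 1.37 at day 15, a difference of 0.65 (SE 0.52). For this sum ligated and sham animals overlapped at day 8, and each ligated animal lay above each sham animal at day 15. The median was -0.21 without sham animals 2 and 3 of day 15, -0.11 without ligated animal 3 of day 8 and -0.23 with day 8 libraries 4 to 6. C1s1, a protease of the first complement component, rose by 2.16 at day 8 and had 0.85 at day 15, with a difference of -1.31 (SE 0.74, edgeR adjusted p = 0.898). Serping1, the inhibitor of that protease, had a difference of -0.66 (SE 0.54), and C1ra, its partner protease, one of -0.89 (SE 0.77). The 20 listed genes of bile acid synthesis and transport had counts, but 0 passed the filter. Their summed level in ligated animals was 0.00628% of the counts at day 8 and 0.0196% at day 15 as medians, against 0.00375% and 0.00438% in sham animals.

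Bile duct epithelium, which proliferates after ligation, was represented by 6 tested genes of 20, with 3 differences above and 3 below 0 and a median of -0.13. The sign of the median turned with the libraries: it was 0.58 without ligated animal 3 of day 8, 0.19 with day 8 libraries 1 to 3 (5 genes tested) and -0.54 with libraries 4 to 6. Spp1, osteopontin, a secreted glycoprotein of duct cells and macrophages, had the smallest p. Its level was 3.52, 28.3 and 77.3 CPM in sham and 1.60, 16.9 and 52.8 CPM in ligated animals of day 8. Day 15 gave 0, 13.01 and 25.6 CPM in sham and 18.0, 30.4 and 61.1 CPM in ligated animals, and all of these groups overlapped. The difference was 2.53 (SE 0.92, edgeR adjusted p = 0.718), with 1.24 in ligated and -1.29 in sham animals. Krt18, a keratin of hepatocytes as well as duct cells, rose at day 15 (4.59) and had 2.03 at day 8 and a difference of 2.56 (SE 1.44, adjusted p = 0.898). Krt19, the keratin that marks duct cells, had a difference of -1.27 (SE 1.201, adjusted p = 0.98).

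Genes of stellate cells and scar matrix had 18 tested members of 36, of which 6 lay above and 12 below 0 (median -0.33). Of the 18, 2 reached an unadjusted p under 0.05, both lower, against 3.57% of all tested genes. Col6a2, a chain of type VI collagen, was at 18.5, 32.6 and 88.5 CPM in sham and 0, 10.5 and 12.97 CPM in ligated animals of day 15, with no overlap. At day 8 the groups overlapped, with medians of 31.6 CPM in sham and 19.3 CPM in ligated animals. It fell by 2.11 at day 15, and its difference was -1.71 (SE 0.65, edgeR adjusted p = 0.746). Col1a2, a chain of type I collagen, fell by 1.43 at day 15 and had a difference of -1.08 (SE 0.48, adjusted p = 0.841). Fn1, fibronectin, which hepatocytes also secrete, had the opposite sign: it rose by 1.56 at day 15 and had a difference of 0.93 (SE 0.51, adjusted p = 0.899). Col15a1, a collagen of basement membranes outside this list (chromosome 4, 47208161 to 47313167, plus strand, over the predicted gene Gm12426 on the other strand), was among the 12 genes with the smallest p in its direction. It had 17.8, 29.5 and 42.9 CPM in sham and 6.39, 16.3 and 32.9 CPM in ligated animals of day 8, and 30.9, 34.4 and 113 CPM in sham and 0, 5.04 and 12.7 CPM in ligated animals of day 15. Only the day 15 groups were apart, and the difference was -2.60 (SE 0.75, adjusted p = 0.583).

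Red blood cell genes showed an effect of ligation at day 8 and none that passed at day 15. Of 23 tested erythroid genes of 33, 12 rose at day 8 (against 2.77% of all tested genes) and 0 at day 15 (against 3.48%). The difference lay below 0 for 22, with a median of -0.88 (1.08 at day 8 and 0.26 at day 15), and 9 reached an unadjusted p under 0.05, against 3.57% of all tested genes. Hbb-bs, an adult beta globin (chromosome 7, 103826534 to 103828096, minus strand), had 20060, 22932 and 29359 CPM in sham and 34304, 48407 and 77068 CPM in ligated animals of day 8, with no overlap. At day 15 it had 18927, 24482 and 52866 CPM in sham and 19180, 25179 and 44231 CPM in ligated animals, with full overlap. Its difference was -1.11 (SE 0.34, 95% interval -1.80 to -0.43, edgeR adjusted p = 0.673), with -0.83 in ligated and 0.29 in sham animals. Hba-a2, an alpha globin, had a difference of -1.06 (SE 0.32, adjusted p = 0.673) and Sptb, the beta spectrin of the red cell skeleton, one of -1.77 (SE 0.56, adjusted p = 0.709). Globin copies are near-identical and their reads can be split between them, so values of single globin genes are uncertain, and Sptb overlaps Plekhg3 and Gm24010 on the other strand.

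The size of the erythroid difference moved with sham animal 2 of day 15. Erythroid genes made up 12.99% of its counts, against 6.04% to 9.39% in the other 5. The median difference was -0.45 without this animal, and without both sham animals 2 and 3 it was -0.28, with 7 genes above and 16 below 0 and 5 at an unadjusted p under 0.05. Within day 8 libraries 1 to 3 and 4 to 6 it was -1.197 and -0.57.

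Neutrophil, proliferation and histone genes had the lowest differences of the 22 lists with tested genes. All 11 tested neutrophil genes lay below 0 (median -1.52, 7 at an unadjusted p under 0.05), as did all 15 of proliferation (median -0.94, 6) and 47 of 48 replication-dependent histone genes (median -1.204, 19), where 3.57% of all tested genes were lower at that p. From day 8 to day 15 the fitted medians of these lists were 1.92, 0.48 and 0.68 in sham and -0.30, -0.48 and -0.51 in ligated animals. Over all genes 0 were called between days in sham animals in either direction by edgeR (439, or 10.7%, at an unadjusted p under 0.05, and 1 higher and 4 lower by DESeq2). Sham animals 2 and 3 of day 15 carried these levels. In percent of counts, neutrophil genes made up 0.520% and 0.420% of their counts against 0.0350% to 0.159% in the other 4, proliferation genes 0.148% and 0.230% against 0.0379% to 0.0832%, and histone genes 0.855% and 1.01% against 0.228% to 0.463%. Without both, the medians were -0.49 (3 genes above and 8 below 0, 0 at an unadjusted p under 0.05), -0.52 (4 and 11, 1) and -0.49 (10 and 38, 2), and the medians in sham animals were 0.43, 0.02 and 0.04. With day 8 libraries 1 to 3 the neutrophil median was -1.17 with 0 genes at that p, and with libraries 4 to 6 it was -2.53 with 7. The part of other blood cells in these 2 plasma samples was not tested.

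**Figure D3:**
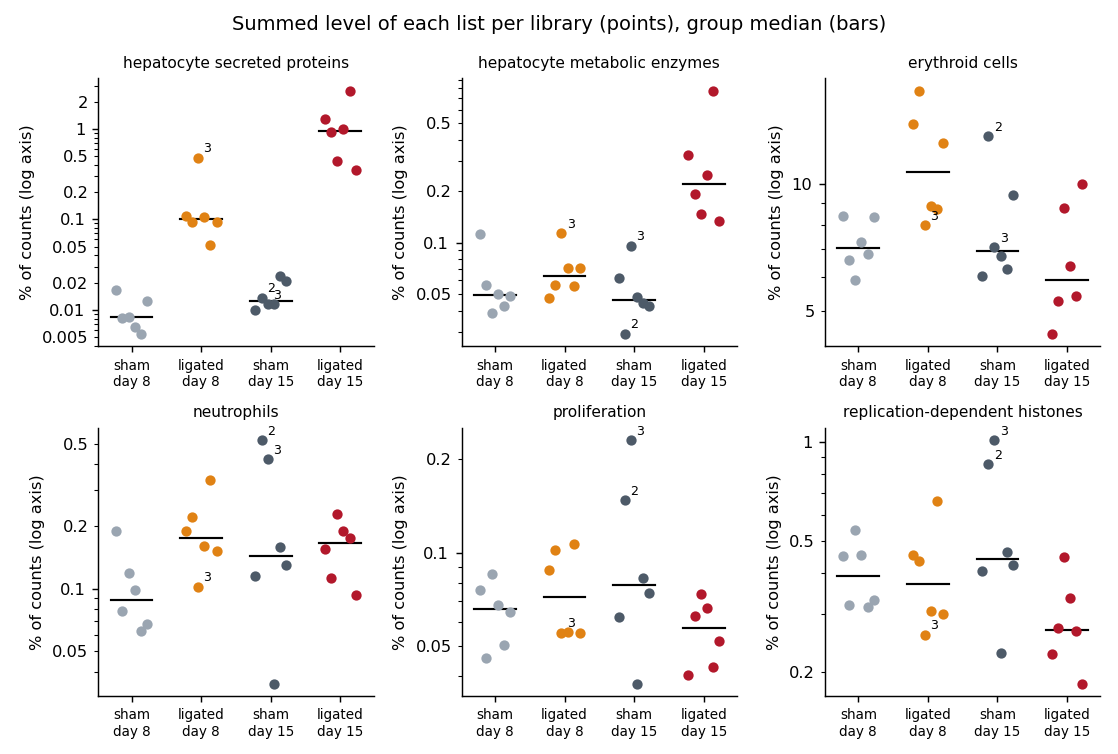
Summed level of 6 lists as percent of all counts in each library (points, log axis) with the group median (bars). Numbers mark ligated animal 3 of day 8 and sham animals 2 and 3 of day 15; these sham animals are the 2 highest of their group for neutrophil, proliferation and histone genes, for example 0.520% and 0.420% for neutrophil genes.

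Ltf, lactoferrin of neutrophil granules (chromosome 9, 111019271 to 111042767, plus strand), had the lowest difference of the 24 leading genes. It had 0, 8.57 and 38.2 CPM in sham and 7.18, 33.8 and 179 CPM in ligated animals of day 8. By day 15 it had 5.79, 28.4 and 136 CPM in sham and 0, 12.1 and 46.9 CPM in ligated animals. All groups overlapped, and sham animals 2 and 3 held the 2 highest values of their group (133 and 136 CPM). The difference was -4.19 (SE 1.29, 95% interval -6.84 to -1.55, edgeR adjusted p = 0.673). It was -2.66 (adjusted p = 0.9997) without these 2 sham animals, -1.93 with day 8 libraries 1 to 3 and -6.08 with libraries 4 to 6. Camp, the cathelicidin peptide of neutrophils, had a difference of -3.63 (SE 1.21) and S100a8, a calcium-binding protein abundant in neutrophils, one of -2.31 (SE 0.82, adjusted p = 0.718), which were -1.74 and -0.73 without the same sham animals.

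Mki67, the marker of dividing cells, had a difference of -1.79 (SE 0.61, edgeR adjusted p = 0.718) with 99.0 CPM as the median and 414 CPM as the highest value in sham animals of day 15, and was -0.77 without sham animals 2 and 3. Mcm3 and Mcm7, subunits of the replicative helicase, fell at day 15 by 1.89 and 1.62 and had differences of -1.85 (SE 0.65) and -1.80 (SE 0.54). Mcm7 contains the microRNA genes Mir106b, Mir25 and Mir93 and overlaps Ap4m1 and Cops6 on the other strand. Hist1h4f, a histone H4 gene, had a difference of -2.02 (SE 0.56, adjusted p = 0.583), with medians of 58.4 and 103 CPM in sham and ligated animals of day 8 and 113 and 43.5 CPM at day 15. Hist1h2bm and Hist1h2bk, of histone H2B, had -2.23 (SE 0.76) and -2.12 (SE 0.77). Histone genes are near-identical copies, so single members are uncertain.

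Platelet genes had lower fitted levels at day 15 than at day 8 in both arms, and differences near 0. Of 26 tested genes of 29, 5 lay above and 21 below 0 with a median difference of -0.15, and 0 reached an unadjusted p under 0.05. From day 8 to day 15 the median was -1.46 in ligated animals, with 12 called lower against 2.09% of all tested genes, and -1.22 in sham animals. The deeper day 8 libraries 4 to 6 held on average 2.30% platelet counts in ligated and 1.83% in sham animals, against 0.621% and 0.652% in libraries 1 to 3. The day 15 libraries held 0.602% and 0.599%, near day 8 libraries 1 to 3. The lower level at day 15 thus lay against day 8 libraries 4 to 6. The median difference was 0.04 without sham animal 2 of day 15, 0.05 without sham animals 2 and 3, -0.30 without ligated animal 3 of day 8 and -0.05 with day 8 libraries 1 to 3. Vwf, von Willebrand factor, had a difference of -0.79 (SE 0.57), Treml1, a receptor of platelet granules, -1.14 (SE 0.90), and Nrgn, neurogranin, -0.61 (SE 0.53). The count of genes called between days in ligated animals followed this split: 93 higher and 86 lower with all libraries, 0 and 0 with day 8 libraries 1 to 3, and 334 and 327 with libraries 4 to 6. For the difference of the ligation effect, 0 genes were called with either set of day 8 libraries.

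Lymphocyte and monocyte genes showed no called difference. All 5 tested genes of T and NK cells lay above 0 (median 0.82, and 0.42 with day 8 libraries 1 to 3). Ccl5, a chemokine of activated T cells (chromosome 11, 83525778 to 83530518, minus strand), had 82.2, 117 and 143 CPM in sham and 30.1, 78.7 and 109 CPM in ligated animals of day 8. On day 15 the values were 48.3, 91.6 and 179 CPM in sham and 100, 141 and 239 CPM in ligated animals, so the groups overlapped at both days. Its difference was 1.19 (SE 0.40, edgeR adjusted p = 0.718), and it rose by 1.06 in ligated animals. Lck and Lef1, a kinase and a transcription factor of T cells, had differences of 0.73 (SE 0.42) and 0.90 (SE 0.53). B cell genes had similar effects at both days: 16 tested, 6 above and 10 below 0, with medians of -0.68 at day 8 and -0.77 at day 15. Their median difference was -0.16, and -0.07 with day 8 libraries 4 to 6. Aff3 fell by 1.11 at day 8 and had a difference of 0.56 (SE 0.47), while Blnk, an adaptor of the B cell receptor, had -0.84 (SE 0.62). Of 8 monocyte and macrophage genes 2 lay above 0, with a median of -0.35 that was 0.0963 without sham animals 2 and 3 of day 15 and -0.06 with day 8 libraries 1 to 3.

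Interferon-induced genes lay below 0 for 23 of 27, with a median difference of -0.34. Of the 27, 1 gene was lower at an unadjusted p under 0.05 (against 3.57% of all tested genes). With day 8 libraries 1 to 3 the median was -0.67, with 6 of 24 genes lower at that p, and with libraries 4 to 6 it was -0.17, with 10 above and 16 below 0. The 1 gene was Isg20, an exonuclease induced by interferon (chromosome 7, 78913424 to 78920396, plus strand). It had 70.4, 93.5 and 186 CPM in sham and 203, 217 and 405 CPM in ligated animals of day 8, with no overlap. At day 15 it had 92.5, 128 and 155 CPM in sham and 53.5, 115 and 200 CPM in ligated animals, which overlapped, and all of these ligated animals lay below those of day 8. Isg20 rose by 1.23 (adjusted p = 0.00777) at day 8 and had -0.07 at day 15, a difference of -1.30 (SE 0.36, 95% interval -2.05 to -0.55, edgeR adjusted p = 0.583), and -1.85 with day 8 libraries 1 to 3 or -0.81 with libraries 4 to 6. Ccndbp1, a cyclin D binding protein outside the lists, followed the pattern of Isg20, with ligated animals of day 15 below those of day 8 and a difference of -1.16 (SE 0.34, adjusted p = 0.672).

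Some of the leading differences lay in the sham arm. March1, an E3 ubiquitin ligase of antigen-presenting cells, had a difference of 1.74 (SE 0.59), with 0.19 in ligated and -1.55 in sham animals. For Srxn1, sulfiredoxin, which repairs oxidised peroxiredoxins, they were 1.66 (SE 0.57), 0.15 and -1.51, and for Tcp11l2 they were 1.14 (SE 0.32), 0.16 and -0.98. Axl, a receptor tyrosine kinase, had -1.85 (SE 0.53), with -0.44 in ligated and 1.41 in sham animals. By contrast, Tsc22d3, the glucocorticoid-induced leucine zipper (chromosome X, 140539528 to 140600659, minus strand), had 43.2, 74.7 and 174 CPM in sham and 177, 206 and 244 CPM in ligated animals of day 15. These ligated animals did not overlap with their sham animals, nor with the ligated animals of day 8 (84.7 to 158 CPM). Its difference was 1.26 (SE 0.33, 95% interval 0.58 to 1.95, edgeR adjusted p = 0.583), with 0.73 in ligated and -0.53 in sham animals. Kdm3a, a histone demethylase, had a difference of 1.29 (SE 0.41, adjusted p = 0.7), with 1.18 in ligated animals, whose 6 values at day 15 (32.5 to 46.7 CPM) lay above the 6 of day 8 (6.05 to 25.5 CPM). Pacs2, a sorting protein, had -1.30 (SE 0.35) and Nhsl2 -1.69 (SE 0.54).

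**Figure D4:**
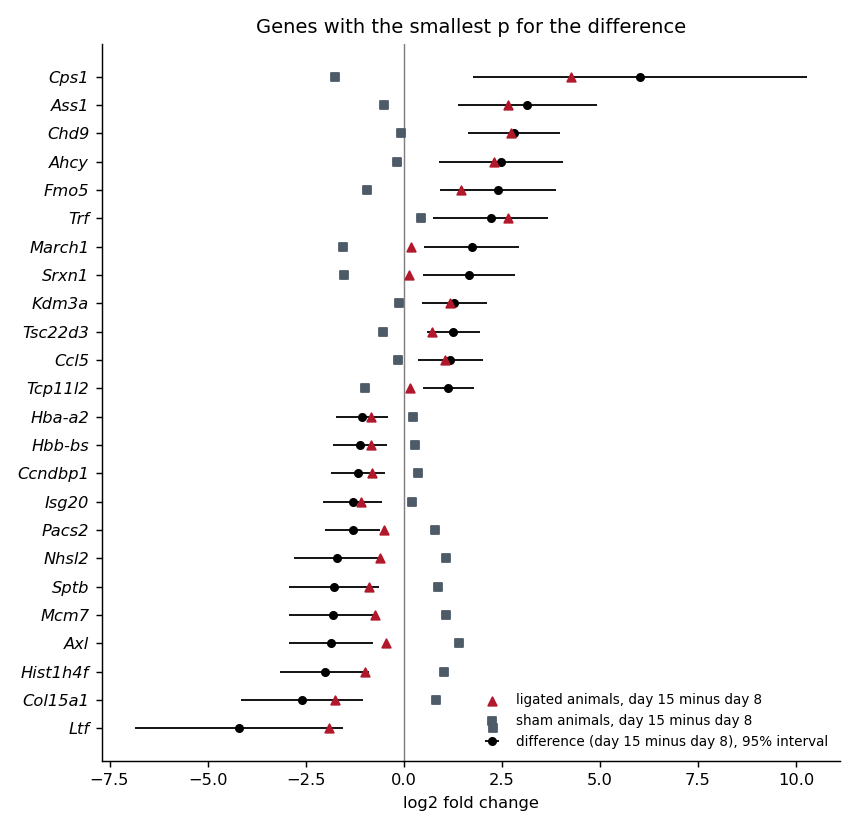
Difference of the ligation effect with its 95% interval (circles, log2 fold change) for the 12 genes with the smallest p in each direction, beside the change from day 8 to day 15 in ligated (triangles) and sham animals (squares). For Chd9 the difference of 2.80 matches the ligated arm (2.74), while for Srxn1 and March1 it matches the sham arm (-1.51 and -1.55, with the sign turned).

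The remaining lists had medians nearer 0. Heart and muscle genes, which check for leakage of other tissues, had 8 tested members with a median of 0.25. It was -0.47 with day 8 libraries 1 to 3 (2 above and 5 below 0) and 0.65 with libraries 4 to 6 (8 above 0). Without ligated animal 3 of day 8 it was 0.39. The 2 muscle genes called lower at day 8, Pln (phospholamban) and Actc1 (cardiac actin), had differences of 1.21 (SE 0.87) and 1.02 (SE 0.89). For Atp2a2, the calcium pump of muscle, the difference was 0.45 (SE 0.58). Endothelial genes had a median of -0.28 over 17 genes (-0.43 with day 8 libraries 1 to 3, -0.09 with libraries 4 to 6, -0.11 without ligated animal 3 of day 8), with Flt1, a receptor of vascular growth factor, at 0.80 (SE 0.51), Pecam1 at -0.47 (SE 0.36) and Esam at -0.65 (SE 0.63). Adipocyte genes had one of -0.19 over 4 (-0.12 without sham animals 2 and 3 of day 15 or without ligated animal 3 of day 8), among them Pnpla2 (-0.72, SE 0.41), Cd36 (-0.21, SE 0.37) and Fabp4 (0.15, SE 0.45). Stress genes of the endoplasmic reticulum and oxidative defence split into 11 above and 11 below 0 (median -0.02, and -0.08 to 0.08 over these sets of libraries), with Gpx3 at -0.93 (SE 0.43) and Gclc at 0.82 (SE 0.52). Genes of vesicle tetraspanins and sorting had 10 of 30 above 0 (median -0.17), but 16 of 29 with day 8 libraries 1 to 3 (median 0.13), with Vps37b at 0.99 (SE 0.49), Hgs at 0.76 (SE 0.44) and the vesicle marker Cd81 at -0.63 (SE 0.42).

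Respiratory chain genes had 37 of 60 above 0 (median 0.09, and 0.01 with day 8 libraries 1 to 3 or 0.15 with libraries 4 to 6), with Ndufs3 at -1.10 (SE 0.50), Cox5a at -0.68 (SE 0.37) and Uqcrfs1 at 0.64 (SE 0.35). Cytosolic ribosomal protein genes were measured best, with a median SE of 0.21. Of 79, 70 lay above 0 with a median difference of 0.17. Of the 79, 2 were higher at an unadjusted p under 0.05, against 2.12% of all tested genes. They were Rpl10a (0.56, SE 0.19, edgeR adjusted p = 0.718) and Rps27a (0.39, SE 0.18). The median was 0.30 without TMM factors, with 14 at that p, and 11 reached it with the replicate block. With day 8 libraries 4 to 6 the median was 0.29 (11 at that p). All fitted ribosomal differences lay between -0.35 and 0.56. The lists of intestinal and kidney epithelium had 0 tested genes of 27 and 18.

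**Figure D5:**
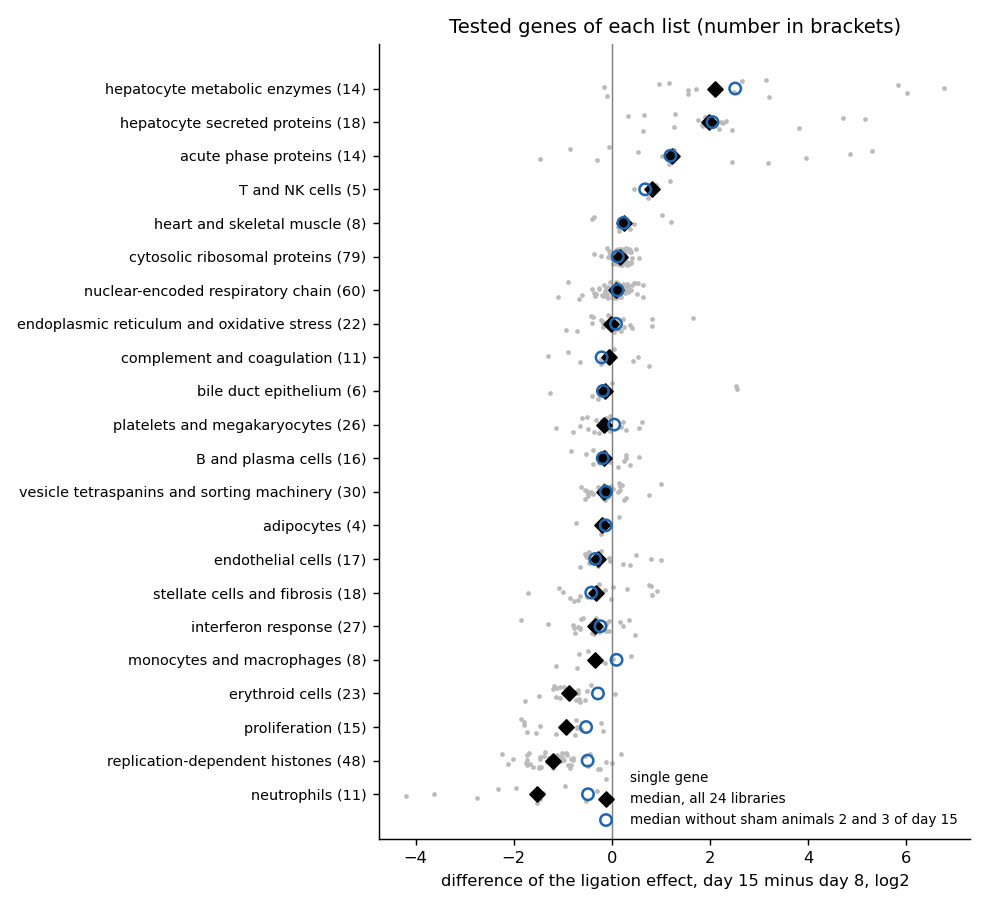
Difference of the ligation effect (log2) for the tested genes of each of 22 lists (grey points), with the list median over all 24 libraries (diamonds) and without sham animals 2 and 3 of day 15 (open circles). The medians of neutrophil, histone, proliferation and erythroid genes lie nearer 0 without them (for neutrophil genes -0.49 in place of -1.52), while that of secreted liver proteins is 2.05 in place of 1.97.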

How the data were processed

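Plasma vesicle RNA of 24 mice was sequenced, per the labels' protocols, after ExoQuick precipitation and miRNeasy extraction, from stranded libraries with neither poly(A) selection nor removal of ribosomal RNA. The authors deposited expected counts per gene, all whole numbers and taken as rounded estimates. STAR and RSEM made them, per the submitters' processing notes, which give no version. The notes also list hg38, a human build, whereas identifiers are mouse, so the build of alignment was not established. Coordinates come from GENCODE M21 (GRCm38), which held 21860 of 21960 identifiers. No column was left unused (0). Replicates were read as separate animals, from their numbers in the titles, and p-values measure the spread between these samples. Any 2 libraries of a group differed beyond sampling noise (chi-square per degree of freedom at least 1.74). Reads carry no molecular identifiers, so the 95% exact intervals of ratios, and floors of 3 counts per group, describe counting error alone.

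Counts were passed through filterByExpr (minimum count 10, total 15), scaled by TMM and fitted with edgeR 4.0.16 (1 mean per group, all 24 libraries) under R 4.3.3; p-values were adjusted by Benjamini-Hochberg with a threshold of 0.05. Errors and 95% intervals are Wald values on the log2 scale. limma 3.58.1, DESeq2 1.42.0, other scalings and filters, a replicate block, day 8 libraries 1 to 3 or 4 to 6 alone and omission of single libraries were alternatives. The contrast averaged over days, the omission of sham animals 2 and 3 of day 15 and the block at day 8 only were chosen after seeing the data. Scripts were tested on simulated data. Named genes are the 12 with the smallest p in each direction and up to 3 by smallest p from each of 25 lists; some are not reported here. The members and lists were chosen with earlier results of these data known. Titles number the animals 1 to 6. Deviations of same-numbered ligated and sham libraries correlated by 0.165 to 0.327 at day 8 and by -0.031 to 0.113 at day 15. A minimum of 0.1 was passed by 6 of 6 pairs at day 8 and 1 of 6 at day 15. Only 6 of 12 libraries of day 8, and 2 of 12 of day 15, correlated best with the library of their own number. Day 8 libraries 4 to 6 were deep and rich in platelet genes in both groups, and pairing was not separated from this split. A pairing at day 8 rests on these data alone and is not established.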

Additional observations from a re-analysis of the deposited data

Results flagged for a closer look

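Single libraries stood apart from the other 5 of their group (the gap to the nearest library was a large share of the group's range by Dixon's criterion) in 27 of 184 groups of 6 examined, over summed levels of lists and the CPM of leading genes. For normally distributed values about 1 in 20 groups would be flagged by chance. Values were used without a log transform, and Cps1 was 0 in all but 1 library of each sham group. The rate by chance was therefore not established here, and libraries share their flags over related genes. Ligated animal 3 of day 8 was high in secreted liver proteins (0.480% of counts), liver enzymes (0.113%) and acute phase genes (0.146%), and in Chd9 (1072 CPM), Trf (1700 CPM), Ass1 (95.05 CPM) and Ahcy (79.2 CPM). Ligated animal 5 of day 15 was high in liver enzymes (0.776%), stress genes (0.346%), Cps1 (532 CPM) and Ass1 (693 CPM). Sham animal 1 of day 8, the library with the fewest counts (101733), was high in liver enzymes (0.112%), Ass1 (38.2 CPM), Trf (134 CPM), Ccndbp1 (105 CPM) and Nhsl2 (57.4 CPM).

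Sham animal 1 of day 15 was high in stellate cell genes (0.522%) and endothelial genes (0.379%), and sham animal 2 of that day in Srxn1 (57.5 CPM) and Ccndbp1 (150 CPM). Cps1 was held by a single sham library at each day, animal 6 of day 8 (29.3 CPM) and animal 4 of day 15 (8.68 CPM). Ligated animal 1 of day 15 was high in monocyte genes (0.0685%), and ligated animal 2 in heart and muscle genes (0.108%) and adipocyte genes (0.0683%). Ltf was high in ligated animal 5 of day 8 (179 CPM) and Sptb in sham animal 3 of day 8 (295 CPM).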

How the results depend on the processing

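Counts are genes called by the adjusted test, higher and lower. With all libraries they were 0 and 0 for the difference, 114 and 15 at day 8, 143 and 44 at day 15, 93 and 86 between days in ligated animals and 0 and 0 in sham animals, and 52 rose at both days. DESeq2 called 1 gene higher for the difference, 24 lower at day 8, and 1 higher and 4 lower in sham animals. Library totals without TMM factors gave 1 higher for the difference, 56 and 77 at day 8, 172 lower at day 15 and 54 lower in ligated animals. Without a filter on low counts (18710 genes) the difference had 22 and 29, day 8 263 and 35, day 15 553 and 135, ligated animals 377 and 275, sham animals 38 and 112, and 141 rose at both days; the cause was not tested. A minimum count of 30 (1061 genes tested, so fewer calls) gave 56 higher at day 15 and 36 and 45 in ligated animals. limma-voom gave 27 lower at day 8, 92 and 25 at day 15, 212 higher in ligated animals and 20 at both days, and robust dispersion 57 lower in ligated animals. With day 8 libraries 1 to 3 only there were 45 and 1 at day 8, 217 and 75 at day 15, 0 and 0 in ligated animals and 32 at both days. With libraries 4 to 6 only there were 5 and 1 at day 8, 247 and 95 at day 15, 334 and 327 in ligated animals, 60 and 190 in sham animals and 5 at both days. A covariate for libraries 4 to 6 gave 1 higher for the difference, 25 lower at day 8, 82 lower at day 15 and 3 and 0 in ligated animals. Without sham animals 2 and 3 of day 15, chosen after seeing the data, there were 230 and 71 at day 15, 141 higher in ligated animals, 1 lower in sham animals and 89 at both days.

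The replicate block, which pairs ligated and sham libraries of the same number, gave 1 gene higher for the difference (Chd9), 33 lower at day 8, 71 lower at day 15 and 84 at both days. With the block at day 8 only, chosen after seeing the data, it was also 1 higher for the difference.

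Leaving out single libraries gave 0 to 2 genes higher for the difference (2, Chd9 and Trf, without ligated animal 3 of day 8) and 0 to 0 lower. The ranges were 51 (without sham animal 4 of day 8) to 149 higher and 3 (without ligated animal 4 of day 8) to 18 lower at day 8, and 98 (without ligated animal 5 of day 15) to 197 higher and 19 to 63 lower at day 15. In ligated animals they were 28 (without ligated animal 5 of day 15) to 181 (without ligated animal 3 of day 8) higher and 8 to 178 lower, in sham animals 0 to 1 and 0 to 1, and at both days 31 to 77. The differences of Atp2a2 (-0.20) and Fabp4 (-0.0174) changed sign with day 8 libraries 1 to 3 only, while 2823 values of single named genes kept direction and side of the threshold and 28 newly passed it; the cause was not tested. Precision was limited for most genes, and the parts of depth and of spread between animals in it were not tested: the median 95% interval of a difference reached 0.89 on the log2 scale to either side.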
